A study of Drosophila melanogaster with 8 samples.

Results

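The Frost, Turandot and cold acclimation genes were followed in the heads of Drosophila melanogaster females that had all been held in the cold. Members were chosen by name: Fst, the Turandot genes TotA, TotB, TotC, TotM, TotX and TotZ, and the related genes regucalcin and smp-30. A gene was measured where the annotation of the array gave at least 1 probe set with its symbol and no other, and where a gene had several, the one of highest mean on the 8 arrays stood for it. Of the 9 genes, 6 were measured, among 11982 genes in all. TotA, TotM and TotX had no such probe set and were not analysed here. The 6 genes had 9 probe sets among the 18769 tested, and 3 of those 9 were second choices, which are given beside the first.

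Values came from 4 diapause and 4 non-diapause arrays of the wild-type strain Canton S, with no transgene or mutant allele in either group. Females were moved within 8 h of eclosion to 12.5 °C with 14 h of light followed by 10 h of darkness, and were dissected after 12 days. A female was placed in the diapause group when her ovaries were arrested before yolk uptake and in the non-diapause group when they were not. Cold, day length and age were therefore shared by both groups, and a level in warm-held flies was not part of the comparison. The heads per array and the number of cultures behind the arrays are not given in the sources used here, so the tests weigh differences only against the spread of these arrays, which could be technical.

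Frost is a Drosophila gene that is switched on when flies recover from cold, and also under desiccation. Turandot genes encode small secreted proteins that the fat body releases into the hemolymph under severe stress such as heat, bacterial infection or irradiation, with input from JAK-STAT, MAP kinase and Imd signalling. The gene smp-30 is also known as Dca, the Drosophila cold acclimation gene, and with regucalcin it encodes proteins of the SMP-30 family, which in mammals bind calcium and act as gluconolactonases. By name, Fst lay inside the gene Dh44 on arm 3R of the reference annotation, TotA, TotC, TotB and TotZ were direct neighbours in that order on 3R, smp-30 lay inside jvl on 3R, and regucalcin was on the X chromosome.

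All values are log2 expression values made with GCRMA, which runs down to a floor of 2.16 in this series. Values within 0.1 of the floor have no order and do not show that a transcript is absent. The highest value was 15.7, array medians lay between 2.70 and 2.86, and arrays correlated with each other at Pearson's r of 0.976 to 0.998 over all probe sets. Differences are diapause minus non-diapause, given ± the SE of the limma fit, and adjusted p-values follow Benjamini and Hochberg over all tested probe sets. Markers of the head were measured on every array, with the eye genes trp and inaC at 12.73 to 14.19, the glial genes repo, Gs2 and moody at 8.90 to 14.47 and the neuronal genes elav and nSyb at 9.16 to 10.97. The neuronal genes para and brp were dimmer, at 4.26 to 5.68 and 4.77 to 6.47. Digestive tract markers were well above the floor on 7 of the 8 arrays, and of the ovary and germ line markers 5 of 6 measured lay within 0.1 of the floor on every array. The exception, Vm26Aa, stayed at 2.32 on all arrays.

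Fst carried the widest variation of the members, and its groups did not overlap. It was 9.72, 9.60, 10.21 and 11.07 on diapause 1 to 4, against 8.996, 9.32, 2.78 and 8.49 on non-diapause 1 to 4. All diapause arrays were above all non-diapause arrays, by 0.28 between the nearest pair, and non-diapause 3 was far below the rest, 5.71 under the next lowest array. Diapause arrays lay entirely above non-diapause arrays in 0.554% of all tested probe sets (104), and in 0.956% of the 10879 probe sets that lay more than 0.1 above the floor on some array. The reverse order held in 1.44% of all tested probe sets. Fst averaged 10.15 ± 0.67 in diapause and 7.40 ± 3.10 in non-diapause heads (SD, n = 4 each). The difference of 2.76 ± 1.54 on the log2 scale had a 95% interval of -0.97 to 6.49 and did not pass the test (limma adjusted p = 1). Without non-diapause 3 it was 1.22 ± 0.43, a 2.32-fold higher mean in diapause heads, with an interval of 0.13 to 2.31 (limma adjusted p = 1).

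**Figure D1:**
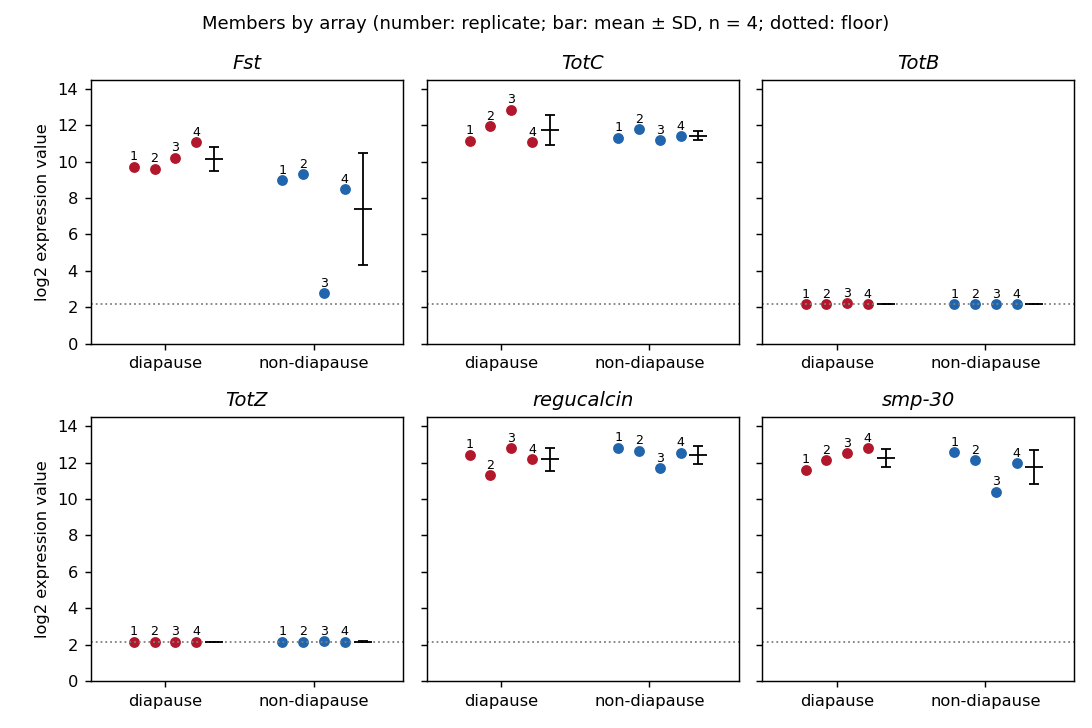
Log2 expression values of the 6 measured members on each array, diapause left and non-diapause right, numbered by replicate, with the mean and SD of 4 arrays and the floor of the scale as a dotted line. Fst on non-diapause 3 (2.78) stands far below the other 7 arrays (8.49 to 11.07), and TotB and TotZ stay at the floor on all arrays.

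No member passed the test at an adjusted p under 0.05 (limma, 0 of 6), where 0.0% of all tested probe sets passed. At unadjusted p under 0.01, the threshold of the study, 0 of 6 members and 0.767% of all probe sets passed, and at p under 0.05 the shares were 0 of 6 members and 3.0% of all probe sets (170 higher and 393 lower). Of the 4 members above the floor, 3 had a higher mean in diapause heads and 1 a lower mean. Their median difference was 0.41, against a median of 0 over the probe sets above the floor, of which 5402 had a higher and 5477 a lower mean. Without diapause 3 the members were 2 higher and 2 lower (median 0.19), without diapause 2 all 4 were higher (median 0.40), and without non-diapause 3 they were 3 higher and 1 lower (median 0.15).

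The low value of Fst on non-diapause 3 was shared by other transcripts. This array lay at least 3 below the lowest of the other 7 arrays for 79 of 18769 probe sets (0.421%), and as far below them as for Fst in 36. All 9 measured markers of the midgut and digestive tract were lowest on non-diapause 3, where the mean of the list was 2.83, against 11.41 to 13.46 on the other arrays. There the maltase gene Mal-A1 was 3.75, against a median of 13.10 elsewhere, and alphaTry, which encodes a trypsin, was 2.36, against 14.01. Of these 9 markers, only yip7, a protease gene, had groups that did not overlap. It was 12.33 to 12.65 on diapause arrays against 2.33 to 12.32 on non-diapause arrays, a gap of 0.011. Diapause arrays lay entirely above non-diapause arrays in 0.554% of all tested probe sets, and in 0.956% of those above the floor. None of the 9 markers passed the test (limma adjusted p = 1). The part of digestive tissue in the difference of Fst was not tested. In RNA of collected heads, the amount of a tissue in the sample and the RNA per cell cannot be told apart. Where the digestive tract signal came from, within the heads or outside them, was not tested. Without non-diapause 3, 5 of these 9 markers had a higher and 4 a lower mean in diapause heads (median 0.065), where with all 8 arrays all 9 had a higher mean (median 2.69).

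Genes with the array profile most like that of Fst were sought among 11976 genes outside the members, by the root mean square difference of profiles centred on their own mean over the 8 arrays. The closest were CG42397 (0.50), hiro (0.54) and CG5506 (0.54), against 2.38 for the variation of Fst itself about its mean. All 3 had their lowest value on non-diapause 3, at 2.36, 2.57 and 3.25. As they were picked for likeness to Fst on these same arrays, that low array and their group means follow from the choice. The diapause and non-diapause means were 9.60 and 6.995 for CG42397, 9.23 and 6.87 for hiro and 11.32 and 8.70 for CG5506. None of the 3 passed the test (limma adjusted p = 1).

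Dh44, which encodes a diuretic hormone and holds Fst within its span, did not share this profile. It was 8.94, 9.85, 8.92 and 9.34 on diapause 1 to 4, against 8.95, 8.76, 9.82 and 9.11 on non-diapause 1 to 4. The groups overlapped. The 2 highest Dh44 values were on diapause 2 (9.85), where Fst was 9.60, and on non-diapause 3 (9.82), where Fst was 2.78. The group difference of Dh44 was 0.10 ± 0.31 (limma adjusted p = 1).

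**Figure D2:**
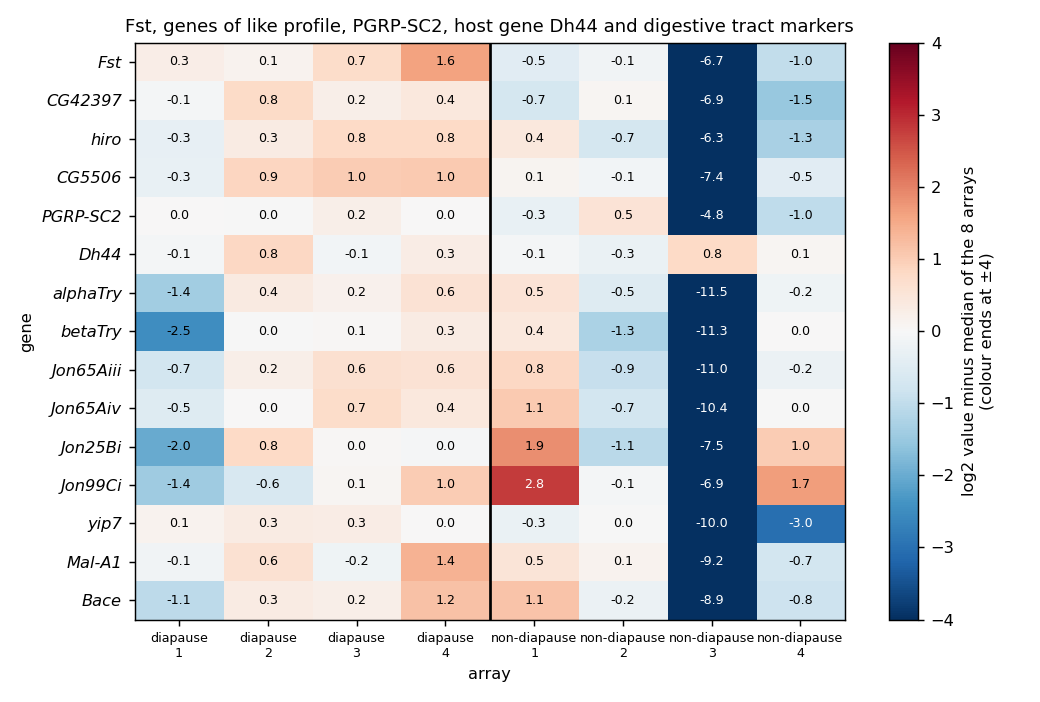
Log2 value minus the median of the 8 arrays for Fst, the 3 genes of most alike profile, PGRP-SC2, Dh44 and the 9 digestive tract markers, by array, with diapause left of the black line. All genes shown except Dh44 are lowest on non-diapause 3, where Fst was 2.78 and alphaTry 2.36. The 3 genes of most alike profile were chosen for that likeness.

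Of the Turandot genes, TotC alone was measured above the floor. It was 11.16, 11.93, 12.85 and 11.07 on diapause 1 to 4, against 11.32, 11.78, 11.19 and 11.39 on non-diapause 1 to 4. Both the lowest and the highest value were on diapause arrays, so the groups overlapped, and diapause 3 was 0.91 above the next array. TotC averaged 11.75 ± 0.83 in diapause and 11.42 ± 0.25 in non-diapause heads (SD, n = 4 each), a difference of 0.33 ± 0.42 with a 95% interval of -0.68 to 1.35 (limma adjusted p = 1). Without diapause 3 the difference was -0.032 ± 0.27. TotB lay at 2.17 to 2.21 and TotZ at 2.16 to 2.18 over all 8 arrays, within 0.1 of the floor, so no difference is given for them. TotF, a further Turandot gene outside the members, lay at the floor as well. Turandot genes are alike in sequence, and the probes of these sets were not examined here, so signal shared between copies cannot be told apart.

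Diapause 3, the array with the highest TotC value, was also the highest for 6 of 9 measured genes of the list of other cold and recovery genes. The exceptions were Inos, Tps1 and Treh, genes of inositol and trehalose metabolism, which peaked on non-diapause arrays. Among the 6, Desat1 was above the next array by only 0.015 (14.53 on diapause 3, against 14.52 on diapause 1). With 9 of 16 listed genes measured, the list mean was 12.86 on diapause 3, against 10.87 to 11.05 on the other 7 arrays. The small heat shock protein genes Hsp26 and Hsp27 were 12.22 and 11.79 on diapause 3, with medians of 8.16 and 7.14 on the others. Hsp68, of the Hsp70 family, was 11.54 there, with a median of 7.20 on the others. The co-chaperone genes DnaJ-1 and stv followed the same order, at 14.24 and 12.63 on diapause 3, with medians of 12.10 and 11.49 elsewhere. The part of this array in the TotC difference shows in the value without it, given above. At least as large an excess on diapause 3 as that of TotC was seen in 54 of 18769 probe sets (0.288%).

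Fst was highest on diapause 4 (11.07), and diapause 3 (10.21) was its second highest array. In the list of other cold and recovery genes, 8 of 9 had a higher mean and 1 a lower mean in diapause heads (median 0.49), and 0 passed at adjusted p under 0.05 or at unadjusted p under 0.05 (limma). The tally of the list, set beside the even split of all probe sets above the floor (5402 higher and 5477 lower), rested on diapause 3. Without that array, 5 genes had a higher and 4 a lower mean, with a median of 0.0035, and 0 passed at adjusted p under 0.05 (limma). At unadjusted p under 0.05 there was 1 gene, where 189 higher and 436 lower of the 10879 probe sets above the floor had such a p (limma). The gene stv, which had the smallest p of the list, was 11.49 to 12.63 on diapause arrays, against 11.24 to 11.49 on non-diapause arrays (0.49 ± 0.26, limma adjusted p = 1). Tps1, the gene of trehalose phosphate synthase, averaged 13.68 ± 0.28 on diapause and 13.88 ± 0.10 on non-diapause arrays (SD), a difference of -0.21 ± 0.15 (limma adjusted p = 1).

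In the pathways that feed into Turandot genes, no measured gene passed at adjusted p under 0.05 (limma). For JAK-STAT signalling, 7 of 10 listed genes were measured and 5 lay above the floor, 2 higher and 3 lower in diapause heads (median -0.0046). The genes of the ligands upd1 and upd2 were at the floor. Ptp61F, a phosphatase gene that restrains the pathway, was 8.51 to 8.80 on diapause arrays, against 8.31 to 8.50 on non-diapause arrays, a gap of 0.012. It was the 1 member of the list at unadjusted p under 0.05 (0.24 ± 0.07, limma adjusted p = 1). Its second, dimmer probe set gave 4.71 in diapause and 4.53 in non-diapause heads. Of all tested probe sets, 3.0% had p under 0.05 (limma), and 0.554% had all diapause arrays above all non-diapause arrays. Ptp61F was named for having the smallest p of its list. Stat92E, the transcription factor of the pathway, averaged 11.95 ± 0.18 on diapause and 12.14 ± 0.12 on non-diapause arrays (SD), a difference of -0.18 ± 0.11 (limma adjusted p = 1).

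For MAP kinase stress signalling, 10 of 11 listed genes were measured, 7 higher and 3 lower (median 0.063), and 0 had p under 0.05 (limma). The JNK phosphatase gene puc differed by 0.15 ± 0.06 (limma adjusted p = 1) and Jra, the fly Jun gene, by 0.12 ± 0.11 (limma adjusted p = 1). For Imd signalling, 9 of 11 were measured, 5 higher and 4 lower (median 0.035), and again 0 had p under 0.05. Without diapause 3 the Imd genes were 4 higher and 5 lower (median -0.024), and without non-diapause 3 the JAK-STAT genes were 3 higher and 2 lower (median 0.047). The adaptor gene imd differed by -0.19 ± 0.11 and key, the gene of a kinase complex subunit, by 0.07 ± 0.05 (limma adjusted p = 1 for both). PGRP-SC2, which encodes a secreted amidase that degrades peptidoglycan, was 8.48 to 8.73 on diapause arrays, against 9.03 on non-diapause 2, 8.20 on non-diapause 1, 7.48 on non-diapause 4 and 3.68 on non-diapause 3. Its low array was thus the one on which Fst was low. The Imd inhibitor gene pirk was 8.49 on diapause 3 and 6.92 to 7.19 on the other arrays, with its highest value on the array where TotC was highest.

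Neither SMP-30 family gene passed the test. For smp-30 the values were 11.61, 12.12, 12.51 and 12.78 on diapause 1 to 4, against 12.57, 12.13, 10.41 and 11.98 on non-diapause 1 to 4. The groups overlapped, and non-diapause 3 was lowest, 1.204 below the next array. The means were 12.26 ± 0.51 in diapause and 11.77 ± 0.94 in non-diapause heads (SD, n = 4 each), a difference of 0.49 ± 0.52 with a 95% interval of -0.77 to 1.75 (limma adjusted p = 1). Without non-diapause 3 the difference was 0.035 ± 0.33.

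A second, dim probe set of smp-30 was 3.25, 3.31, 3.13 and 3.32 on diapause 1 to 4, against 2.93, 3.02, 2.58 and 3.02 on non-diapause 1 to 4. Here all diapause arrays were above all non-diapause arrays, by 0.11 between the nearest pair. The same order held in 0.554% of all tested probe sets and in 0.956% of those above the floor. The difference of 0.37 ± 0.11 had a 95% interval of 0.10 to 0.63 and an unadjusted limma p under 0.05 (adjusted p = 1), where 0.906% of all probe sets were higher in diapause at that p. These values lay no more than 1.16 above the floor, and the bright probe set did not show the same separation. The 3 genes with the array profile most like that of smp-30 were GstT4, a glutathione transferase gene (root mean square difference 0.23), Mipp1, an inositol polyphosphate phosphatase gene (0.26), and CG12171 (0.28), against 0.70 for smp-30 about its own mean. All 3 were lowest on non-diapause 3, as smp-30 was, which follows from their choice by likeness to it on these same arrays.

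**Figure D3:**
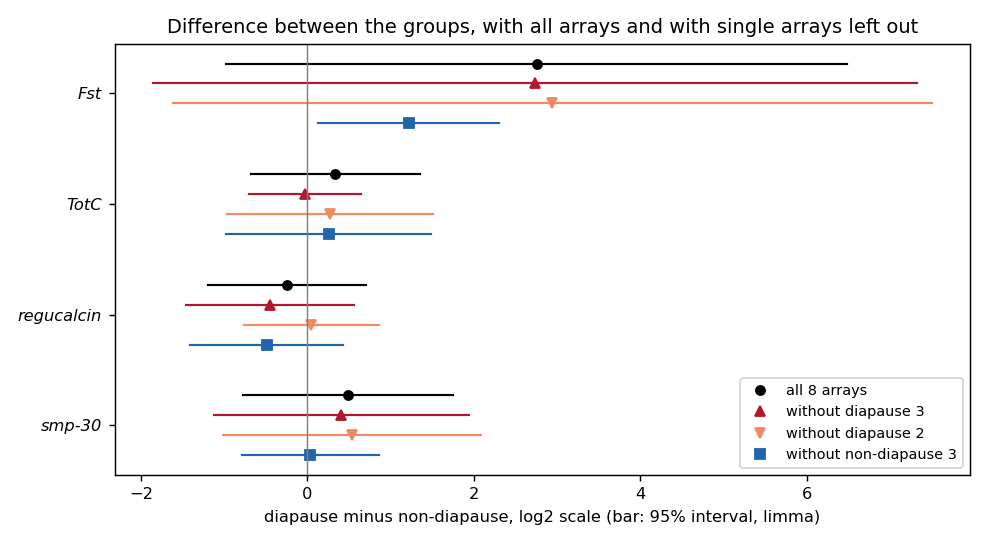
Diapause minus non-diapause on the log2 scale with 95% limma intervals for the 4 members above the floor, with all 8 arrays and without diapause 3, diapause 2 or non-diapause 3. The interval of Fst lies above 0 only without non-diapause 3 (0.13 to 2.31), and TotC, regucalcin and smp-30 include 0 in every case shown.

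For regucalcin the values were 12.43, 11.31, 12.78 and 12.18 on diapause 1 to 4, against 12.81, 12.65, 11.68 and 12.54 on non-diapause 1 to 4. The groups overlapped, and 1 array of each group, diapause 2 and non-diapause 3, lay below the other 6 with a gap of 0.50. The means were 12.17 ± 0.63 in diapause and 12.42 ± 0.50 in non-diapause heads (SD, n = 4 each), a difference of -0.25 ± 0.39 with a 95% interval of -1.19 to 0.70 (limma adjusted p = 1). A second probe set had the same 2 arrays lowest, with 8.43, 6.91, 9.46 and 8.53 on diapause 1 to 4, against 9.40, 9.06, 7.55 and 8.99 on non-diapause 1 to 4 (-0.42 ± 0.65). Both probe sets are of the kind whose probes can match several transcripts, and the remaining probe set of the gene lay at the floor.

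The same 2 arrays were lowest for hemocyte markers. Of 6 such genes, 5 (Hml, NimC1, eater, Col4a1 and vkg) had their 2 lowest values on diapause 2 and non-diapause 3, the exception being Pxn. Whether hemocytes were the only source of each transcript was not examined. The list mean was 7.93 on diapause 2 and 8.30 on non-diapause 3, against 8.68 to 9.14 on the other 6 arrays. These 2 arrays were also set apart for the eye genes trp and inaC, but as the highest. The mean of those genes was 13.52 on diapause 2 and 13.60 on non-diapause 3, against 13.15 to 13.36 on the others. The means of the neuronal and glial lists did not set these 2 arrays apart. NimC1, a phagocytosis receptor gene of hemocytes, was 4.09 on diapause 2 and 5.08 on non-diapause 3, with a median of 6.40 on the others, and Hml, the hemolectin gene, 8.14 and 8.63 with a median of 9.53. Both arrays lay below the other 6 in 1268 of 18769 probe sets (6.76%), or in 1267 of the 10879 above the floor (11.6%), and by at least the gap of regucalcin in 44 (0.234%). The list mean of the fat body markers split by group instead, at 14.63 to 14.86 on diapause arrays, against 14.94 to 15.24 on non-diapause arrays. Of the genes, apolpp and fit still overlapped between the groups. All 6 had a lower mean in diapause heads and p under 0.05, where 2.09% of all probe sets were lower at that p (limma). None passed at adjusted p under 0.05 (limma). The list holds the yolk protein genes Yp1, Yp2 and Yp3, and the paper names Yp2 and Yp3 among its diapause genes. Lists were chosen with earlier results known, so this count is not an independent result about fat body. The part of these cell types in the values of regucalcin and TotC was not tested. Malpighian tubule markers did not separate the arrays (list mean 5.25 to 5.36, with 2 of 4 measured genes at the floor).

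**Figure D4:**
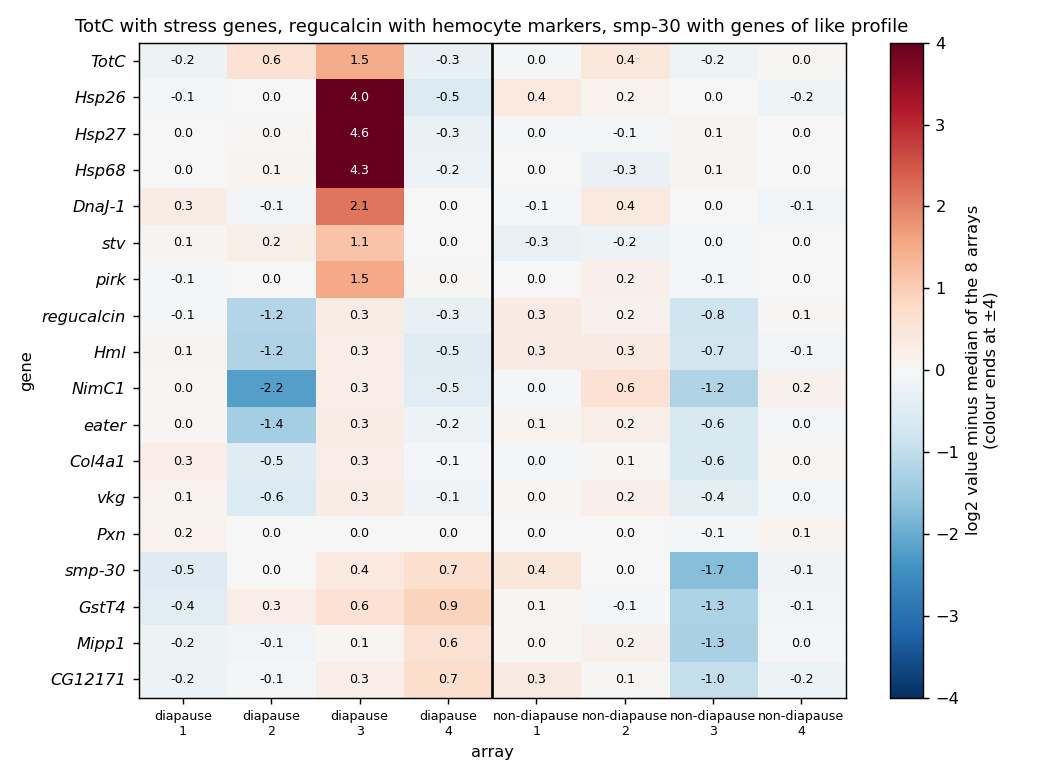
Log2 value minus the median of the 8 arrays for TotC with stress genes and pirk, regucalcin with the 6 hemocyte markers, and smp-30 with the 3 genes of most alike profile, by array, with diapause left of the black line. TotC and the stress genes are highest on diapause 3, regucalcin and 5 of 6 hemocyte markers are lowest on diapause 2 and non-diapause 3, and smp-30 is lowest on non-diapause 3.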

How the data were processed

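Total RNA of female heads (6 µg per array) was labelled with biotin and hybridised in 1 colour to Affymetrix Drosophila Genome 2.0 arrays. The authors deposited log2 expression values for 18952 probe sets on 8 arrays, made with GCRMA per the labels (version not given in the sources used here). In GCRMA, probe sequence sets the background correction, quantiles are made equal across arrays and each set is summarised to 1 value, so dim probe sets collect at a floor and differences near both ends of the scale are compressed.

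No further normalization was applied to the deposited log2 values, and 183 control probe sets were left out. Groups and replicate numbers came from sample titles. Genes were named through the platform annotation, in which 13647 tested probe sets had 1 symbol, 402 several and 4720 none. Of those with 1 symbol, 13544 matched a Release 6 reference table by identifier, used for names and neighbours only, and 0 symbols had changed.

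Each probe set was tested 2-sided over the 8 arrays by lmFit and eBayes (limma 3.58.1, R 4.3.3), with Benjamini-Hochberg adjustment over 18769 probe sets and a threshold of 0.05. In simulated data that took level and spread from the deposited values (18769 probe sets, 10 rounds), 35.7% of probe sets changed by 0.5 and 62.8% of those changed by 1 on the log2 scale passed. Changed probe sets were drawn only from those that varied, and the noise was normal and independent, with no array standing apart. These shares do not hold for the members above the floor, whose SD within a group was 0.25 (TotC) to 3.10 (Fst). The number of arrays limits the precision.

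Named were all members, Dh44 and TotF, from each pathway list the 2 genes with the smallest p and any with a range of at least 3, and for members with a range of at least 2 the 3 genes of most alike profile. DnaJ-1, pirk and the single marker genes named were picked with their values in view. Members and lists were chosen with earlier results of these data known. Tried as alternatives were array weights, centring on medians, quantile normalization a second time, limma-trend with the default and the robust prior, leaving out dim probe sets, the replicate number as a block, averaging a gene over its probe sets, and arrays left out singly or, added after seeing the data, in 2 pairs. Counts over lists were also taken without diapause 3, diapause 2 or non-diapause 3, likewise added after seeing the data. A search for promoter motifs was planned but was not run here.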

Additional observations from a re-analysis of the deposited data

Results flagged for a closer look

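Single arrays stood apart from the other 3 of their group, by a gap wider than Dixon's 95% critical value for the share of the group's range, in 10 of 49 groups of values tested. Chance flags about 1 in 20 such groups, but that rate cannot be set against this count. Of the 10 flags, 8 fell on genes that were named for a range of at least 3 or for a profile like that of Fst or smp-30, so the choice of genes favoured them, and groups that share an array are not independent.

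On non-diapause 3, Fst was 2.78 (others 8.49 to 9.32) and CG5506 was 3.25 (others 10.21 to 10.77). On the same array GstT4 was 9.98 (others 11.14 to 11.34), Mipp1 was 9.78 (others 11.05 to 11.26) and Tps1 was 13.73 (others 13.92 to 13.95). CG5506 was also low on diapause 1, at 10.36 (others 11.52 to 11.70).

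On diapause 3, Hsp68 was 11.54 (others 6.96 to 7.33), Hsp27 was 11.79 (others 6.90 to 7.18) and Hsp26 was 12.22 (others 7.64 to 8.16). PGRP-SC2 was 8.73 there (others 8.48 to 8.51). TotC, smp-30 and regucalcin were not past the critical value in either group.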

How the results depend on the processing

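Under the alternatives, 0 of the measured members passed at adjusted p under 0.05 in any fit. The limma adjusted p was 0.340 to 1 for Fst, 0.651 to 1 for TotC, 0.553 to 1 for regucalcin and 0.529 to 1 for smp-30. The replicate block, the filters for dim probe sets and the limma-trend fits cannot change a difference, so their values could not turn. With those counted in, 69 values of the 4 members above the floor kept their direction, while 5 turned. These were TotC at -0.10 with array weights, -0.032 without diapause 3 and -0.11 without diapause 3 and non-diapause 3, regucalcin at 0.043 without diapause 2, and smp-30 at -0.051 without diapause 3 and non-diapause 3. With arrays left out singly, the difference ranged from 1.22 to 3.40 for Fst, from -0.032 to 0.56 for TotC, from -0.49 to 0.043 for regucalcin and from 0.035 to 0.76 for smp-30. Without diapause 3 and non-diapause 3 regucalcin was -0.69. The cause was not tested beyond the values of the arrays left out. Over all probe sets, 0 passed with all 8 arrays, 2 after a second quantile normalization, 1 after centring on array medians, 4 with array weights, and 0 to 2 with arrays left out singly (2 without non-diapause 2). At unadjusted p under 0.01 the count was 144, and it was 318 after centring, 232 after the second quantile normalization and 39 with a robust prior. Centring moved the median difference of all probe sets to -0.06.

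Arrays with the same replicate number in the 2 groups did not deviate together (correlations of -0.66 to -0.02). The sources used here do not say whether such arrays shared a culture or handling, and 4 pairs are too few to settle it. With the replicate block 0 probe sets and 0 members passed, and 112 probe sets had p under 0.01 (limma). In this balanced layout the block cannot change a difference, so that of Fst was again 2.76 (limma adjusted p = 1). With 4 arrays per group, an Fst difference of any size from -0.97 to 6.49 lies within the 95% interval.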
